A study of Mus musculus with 10 samples.

Results

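Muc1, Fgb, Cebpb and Bcl3 are 4 of the 230 genes listed in the expression table deposited for IL-22 treated MIN6N8 cells, and all 4 are known from other tissues as genes that respond to the transcription factor STAT3. They were chosen by name, with the difference between IL-22 and PBS in these libraries already in view, and every gene in the table had been selected on the same comparison at a false discovery rate below 0.05. The difference between treatments is therefore given for the 4 genes as a description, with no p-value. Where the 4 genes are counted as called by a test, the count stands beside that of the table and is not read as evidence. Both groups were MIN6N8 cells, an established insulin-secreting line from a mouse insulinoma labelled as pancreatic beta cells, with no change of genotype. The cells were moved to medium with 5.5 mM glucose and received PBS, the vehicle (5 libraries), or 100 ng/mL IL-22 (5 libraries) for 4 h, so the controls share the change of medium. The question behind the comparison was which genes lie downstream of the IL-22 receptor in beta cells. As all 10 libraries came from one tumour line, they model a cultured beta cell and not an islet, and the labels do not say whether the libraries came from separate cultures, so the spread between them may be technical.

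IL-22 is a cytokine of the IL-10 family that acts mainly on epithelial and secretory cells, where its receptor activates Janus kinases and, through them, STAT3. Phosphorylated STAT3 dimers bind short palindromic DNA elements, and in the liver this switches on the acute-phase response, in which plasma proteins such as fibrinogen are made in large amounts. Cebpb encodes C/EBPβ, a transcription factor that acts beside STAT3 at many acute-phase genes. Bcl3 encodes an atypical IκB protein that binds NF-κB dimers in the nucleus. Fgb encodes the fibrinogen β chain, and Muc1 a transmembrane mucin of glandular and ductal epithelia.

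The sequence before each start site was taken from RefSeq (mouse build GRCm38.p6), as a window of 300 bases with 250 before the start and 50 from it onward, and all 4 genes had an entry. The windows of Fgb and Cebpb are printed because they are the least and the most GC-rich of the 4, at 46.3% and 80.7% GC, against a median of 52.7% over 32851 such windows. That of Fgb (chr3:83049814-83050113, minus strand) and that of Cebpb (chr2:167688665-167688964, plus strand) follow from 5′ to 3′, with matches to the searched motifs in capitals.
Fgb: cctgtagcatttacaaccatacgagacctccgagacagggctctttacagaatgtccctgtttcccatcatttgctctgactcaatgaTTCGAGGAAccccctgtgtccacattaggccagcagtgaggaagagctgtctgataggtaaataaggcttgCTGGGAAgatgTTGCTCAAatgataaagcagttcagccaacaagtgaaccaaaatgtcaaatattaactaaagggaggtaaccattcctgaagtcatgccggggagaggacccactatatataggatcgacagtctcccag
Cebpb: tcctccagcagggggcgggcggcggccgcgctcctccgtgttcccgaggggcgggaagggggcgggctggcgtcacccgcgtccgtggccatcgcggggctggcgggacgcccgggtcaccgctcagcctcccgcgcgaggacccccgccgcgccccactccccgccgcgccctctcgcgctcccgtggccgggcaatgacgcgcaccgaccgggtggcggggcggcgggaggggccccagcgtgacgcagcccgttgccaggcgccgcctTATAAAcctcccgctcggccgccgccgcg

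Both strands were searched for 4 motifs, which were settled with these windows in view. The STAT element was written as TTCNNNGAA, and 8.3% of all promoters of the same length held it. The IL-6 response element was written as CTGGGAA, which 11.1% of them held. The C/EBP element, TTGCNNAA, was found in 10.8%, and the TATA box, as the letters TATAAA, in 13.6%. The Fgb window held a match to the STAT, IL-6 and C/EBP elements, with first bases at -162, -91 and -80 from the start, all on the strand of the gene and with no overlap between them. In the Cebpb window the only match was TATAAA, with its first base at base 22 when the annotated start is itself counted. The Muc1 window (chr3:89228806-89229105, plus strand, 55.7% GC) held TATAAA at -31, and the Bcl3 window (chr7:19822706-19823005, minus strand, 69.0% GC) held none of the 4 motifs. A match is a string of letters and not a binding site, and binding was not measured here.

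In build GRCm38 (GENCODE M21 annotation), Muc1 lies on chr3:89229057-89233381 on the plus strand, with 7 exons in its longest transcript of 2242 nt. Fgb lies on the same chromosome at chr3:83040141-83049863 on the minus strand, with 8 exons and a transcript of 3810 nt. Cebpb (chr2:167688915-167690418, plus strand) is a gene of 1 exon and 1504 nt. Bcl3 (chr7:19808462-19822770, minus strand) has 9 exons in its longest transcript of 1850 nt and 6 annotated transcripts, against 3 for Muc1 and 1 each for Fgb and Cebpb. The opposite-strand gene Tmem189 overlaps Cebpb over 908 bp, 312 bp of them in exons of both genes. A pair of antisense genes overlap Bcl3, Gm16175 over 161 exonic bp and Gm16174 over none. The kit marks strand, but the strand setting of the counting is not given in the sources used here, so reads of these partners cannot be told apart from those of Cebpb and Bcl3. Muc1 and Fgb had no annotated overlap.

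The libraries held 23685886 to 35785875 counted reads with PBS and 26759222 to 30568907 with IL-22, and the listed genes took 2.87 to 3.11% of each. The 4 genes stood among the least abundant of the table. Ranked by mean CPM (reads scaled to a common library total), Bcl3 was 207th of 230, Muc1 215th, Cebpb 226th and Fgb 227th. Fgb and Cebpb rested on as few as 15 and 23 reads in a PBS library, so counting error alone gives their CPM a coefficient of variation of 17.8% and 17.2% in that group.

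Muc1 showed the largest difference of the 4. With IL-22, libraries 1 to 5 measured 5.07, 5.27, 5.42, 6.17 and 6.45 CPM of Muc1, from 141 to 178 reads. With PBS, libraries 1 to 5 measured 2.77, 2.83, 2.13, 2.44 and 1.87 CPM, from 54 to 99 reads. The groups did not overlap, with 2.24 CPM between the highest PBS and the lowest IL-22 library, and PBS library 5 was the lowest of all. The group means were 5.67 ± 0.599 (SD, n = 5) with IL-22 and 2.41 ± 0.411 with PBS, a ratio of 2.36. On the log2 scale the fitted difference was 1.24 (SE 0.153), the fifth highest of the 230 genes.

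Fgb, the fibrinogen chain, was the gene with the fewest reads for its length. With IL-22, libraries 1 to 5 measured 1.80, 2.24, 2.28, 2.21 and 2.68 CPM of Fgb, from 55 to 74 reads. With PBS they measured 1.01, 1.31, 1.33, 1.32 and 0.518 CPM, from 15 to 40 reads. All IL-22 libraries lay above all PBS libraries, but by a gap of 0.465 CPM only, and PBS library 5 was again the lowest, well under the other PBS libraries. The means were 2.24 ± 0.313 CPM with IL-22 and 1.10 ± 0.352 CPM with PBS, a ratio of 2.04. The fitted log2 difference of 1.03 (SE 0.252) ranked 8th of 230 and had the widest error of the 4 genes.

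Cebpb, which encodes the transcription factor C/EBPβ, measured 2.03, 2.39, 2.35, 2.10 and 2.10 CPM in IL-22 libraries 1 to 5, from 58 to 64 reads. In PBS libraries 1 to 5 it measured 1.03, 1.69, 1.23, 0.780 and 1.21 CPM, from 23 to 40 reads. The groups did not overlap, with 0.339 CPM between PBS library 2, the highest control, and IL-22 library 1. The means were 2.20 ± 0.165 CPM with IL-22 and 1.19 ± 0.333 CPM with PBS, a ratio of 1.85 and a fitted log2 difference of 0.90 (SE 0.225), 12th of 230. Within the IL-22 group the coefficient of variation of Cebpb was 7.50%, under the 12.8% that counting error alone gives, so no spread beyond counting was detectable there.

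Bcl3, the nuclear IκB protein, differed from the other 3 genes in that its groups overlapped. With IL-22, libraries 1 to 5 measured 12.0, 13.3, 11.3, 12.3 and 12.5 CPM of Bcl3, from 302 to 366 reads. With PBS they measured 7.63, 10.9, 10.1, 8.21 and 12.2 CPM, from 242 to 354 reads. PBS library 5 lay inside the range of the IL-22 libraries and 3 IL-22 libraries lay above it, while all 5 IL-22 libraries lay above the PBS median. The means were 12.3 ± 0.732 CPM with IL-22 and 9.82 ± 1.90 CPM with PBS, a ratio of 1.25 and a fitted log2 difference of 0.33 (SE 0.119), 52nd of 230. Without PBS library 5 the fitted difference was 0.42 and the groups did not overlap. That held in either direction for 186 of the 230 listed genes, against 121 with all libraries.

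**Figure D1:**
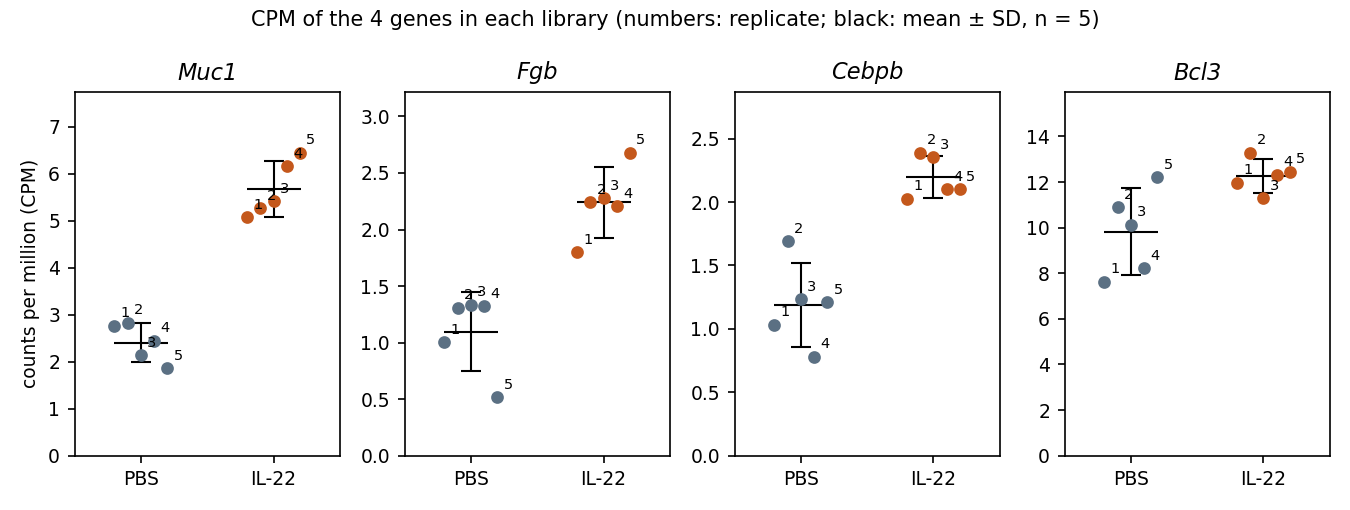
CPM of Muc1, Fgb, Cebpb and Bcl3 (vertical axes, each from 0 and on its own scale) in the 5 PBS and 5 IL-22 libraries, numbered by replicate, with the mean and SD of each group in black. Muc1, Fgb and Cebpb separate fully by group, and for Bcl3 PBS library 5 at 12.2 CPM sits among the IL-22 libraries.

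The plot of CPM by library also shows how far the libraries of a group spread relative to their mean. For Bcl3 the coefficient of variation was 19.3% with PBS against 5.96% expected from counting error, and 5.96% with IL-22 against 5.41%. For Fgb it was 32.1% with PBS and 13.9% with IL-22, and for Cebpb 28.0% and 7.50%. For Muc1 it was 17.1% and 10.6%, each above its counting error of 12.0% and 7.96%. The values of Fgb with PBS rested on library 5, which held 15 reads of it. Without that library, a choice made after seeing the data, the coefficient of variation of Fgb with PBS was 12.7%, under its counting error of 16.7% and under the 13.9% with IL-22. For Muc1, Cebpb and Bcl3 the coefficient with PBS was above that with IL-22 whichever PBS library was left out, at 12.6 to 19.8%, 19.7 to 32.6% and 16.2 to 22.4%. Counting error alone was also higher with PBS for Muc1 and for Cebpb (17.2% against 12.8%). Without PBS library 5 the counting error of Muc1 was 11.6%, beside a coefficient of 12.6%. Without PBS library 2 that of Cebpb was 17.5%, beside 19.7%. The spread between the groups was not compared by a test.

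Most of the table was higher with IL-22, like the 4 genes. The median log2 difference was 0.97 over the 4 genes and 0.21 over the 230 listed genes, of which 197 were higher with IL-22. By edgeR's quasi-likelihood test at a false discovery rate of 0.01 over the listed genes, 81.3% of the table was called higher with IL-22, as were 3 of the 4 genes (all but Bcl3). With a block for replicate number, which the labels do not tie between groups, all 4 were called, beside 83.9% of the table. In 46.5% of the table every IL-22 library lay above every PBS library, as in the same 3 of 4. As the comparison chose these genes, nothing is read from those counts. In this bulk material, more cells with a transcript and more transcript per cell cannot be told apart.

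To compare levels between the genes, reads were divided by the length of the merged exons as well as by the library total (RPKM, the CPM per kilobase). Bcl3 had the highest level per length, at 3.97 ± 0.768 RPKM with PBS and 4.96 ± 0.296 RPKM with IL-22. Muc1 followed at 1.03 ± 0.175 and 2.42 ± 0.255 RPKM. Cebpb was next at 0.791 ± 0.221 and 1.46 ± 0.110 RPKM, and Fgb was lowest at 0.288 ± 0.0924 and 0.588 ± 0.0820 RPKM. The order was the same in both groups. With PBS the ranges of Muc1 and Cebpb overlapped, with Muc1 higher in 4 of 5 libraries and a ratio of means of 1.30, so this step in the order lies within the spread between libraries. No other neighbours in the order overlapped in either group. With IL-22 the level of Bcl3 was 2.05 times that of Muc1, against 3.87 times with PBS, as Muc1 showed the larger difference between groups. These ratios depend on the length used. With the longest transcript they were 2.62 and 4.94.

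The 4 genes belong to a wider STAT3 response list of 51 genes drawn up from textbook knowledge, of which 8 were in the table. The list, like the other lists here, was drawn up with earlier results of these libraries known. All 8 were higher with IL-22, 7 of them past the test in a table where 81.3% passed, and their median log2 difference was 0.70. The other 4 were Junb, an AP-1 transcription factor, at 0.75 (SE 0.112), Serpina3n, a secreted protease inhibitor of the acute phase, at 0.65 (SE 0.181), Socs3, the feedback inhibitor of this pathway, at 0.48 (SE 0.0726), and Stat3 itself at 0.28 (SE 0.0325). Muc1, Fgb and Cebpb had larger log2 differences than any of these 4, and Bcl3 lay between Socs3 and Stat3. The standard error of Bcl3, 0.119, was several times that of Stat3, whose mean was 227 ± 4.51 CPM with PBS. The remaining genes of the list, among them the other fibrinogen chains, were not analysed here, since the table holds only genes past its threshold.

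**Figure D2:**
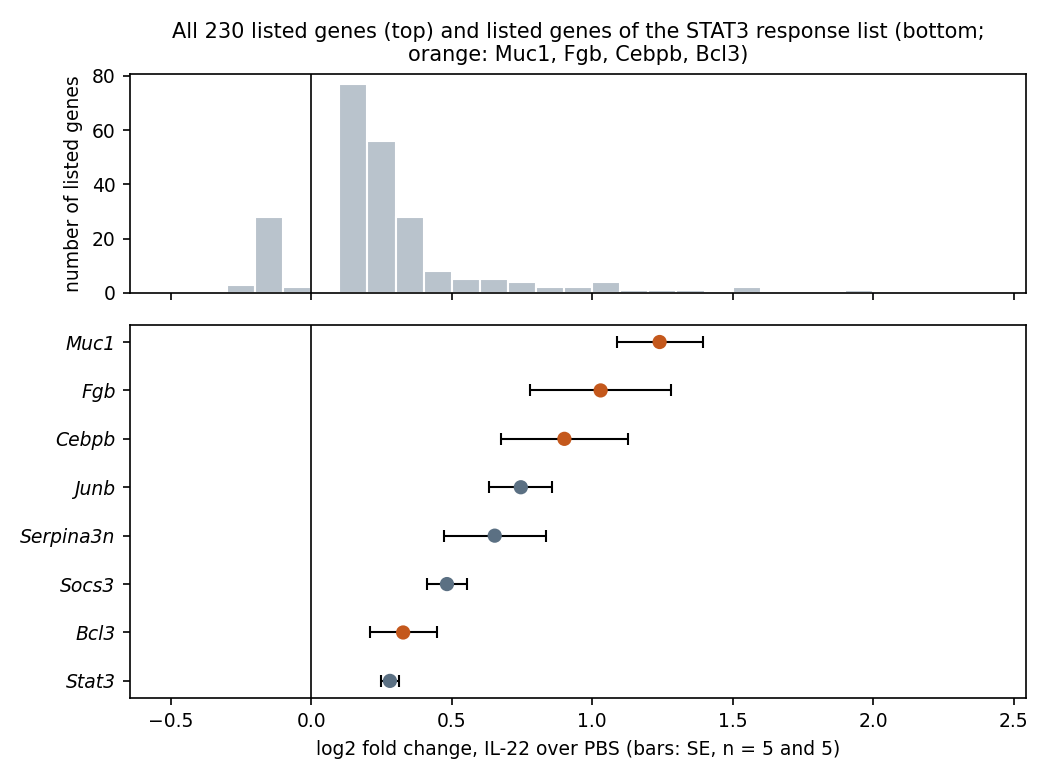
Log2 difference between IL-22 and PBS for all 230 listed genes as a histogram (top) and for the 8 listed genes of the STAT3 response list with their SE (bottom, 5 libraries a group). Muc1, Fgb and Cebpb lie in the sparse upper tail at 1.24, 1.03 and 0.90, and Bcl3 at 0.33 lies near the bulk of the table.

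In each gene's own family the table held few relatives. Of 12 mucins Muc1 was the 1 listed, and of 14 fibrinogen and coagulation genes Fgb was the 1 listed. Of 7 C/EBP family genes Cebpb was the 1 listed. Of 11 NF-κB and IκB genes, Bcl3 was joined by Nfkbib, a cytoplasmic NF-κB inhibitor, which was called higher at 0.25 (SE 0.0797). Of 25 IL-22 receptor and JAK-STAT genes 3 were listed and called higher, in a table where 81.3% were, and these were Jak3 at 0.38 (SE 0.0649), Socs3 and Stat3. The IL-22 receptor genes themselves were not among those analysed here.

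The beta cell identity of the line was checked on its markers as far as the table allows. Of 17 beta cell markers 6 were listed, and the hormone gene Iapp measured 8930 ± 222 CPM with PBS. Mafa, a beta cell transcription factor, was called higher with IL-22 at 0.58 (SE 0.0945), as were Nkx6-1, Pdx1 and Nkx2-2 at 0.26, 0.16 and 0.17, beside 81.3% of the table. Slc2a2, the glucose transporter, was called lower at -0.17, and Iapp was at -0.07 (SE 0.0276) and not called. No marker on the lists for hepatocytes, ducts, acini, alpha and delta cells, immune cells or fibroblasts was in the table, and their levels were not analysed here. Fgb and Muc1 are best known from hepatocytes and duct epithelium, and a part of such cells in the level of either gene was not tested.

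A measure that the choice of genes did not use is how they vary among libraries of the same treatment. The mean of each group was taken out of the log2 CPM, and the 6 pairs were compared over 10 libraries by exact permutation within groups (14400 arrangements, two-sided). Muc1 and Fgb had Pearson's r = 0.65 (exact permutation p = 0.0805, Benjamini-Hochberg adjusted p = 0.483 over 6 pairs) and Spearman's rho = 0.333 (exact permutation p = 0.424). This rested on PBS library 5, without which r was 0.166, while r was 0.603 without PBS library 2. Without both, the 2 farthest from the median of Muc1, r was 0.0955. Cebpb and Bcl3 had r = 0.635 (exact permutation p = 0.198, adjusted p = 0.594) and rho = 0.697 (exact permutation p = 0.0694), and r = 0.587 without PBS libraries 4 and 2. For Muc1 with Bcl3 r was -0.464, which was -0.0725 without PBS library 5. For Fgb with Bcl3 r was -0.416 and rho -0.0182, and r turned to 0.47 without PBS library 5 and to 0.422 without PBS libraries 5 and 3. Cebpb had r = 0.047 with Muc1 and -0.00875 with Fgb. With all 10 libraries and no further correction, none of the 6 pairs was below 0.05 before adjustment. With a line on the GC index of the libraries (defined below) taken out, Cebpb and Bcl3 had r = 0.853 (exact permutation p = 0.0247, adjusted p = 0.148). Without PBS library 3, Muc1 and Fgb had r = 0.826 (exact permutation p = 0.0358, adjusted p = 0.215). After adjustment no pair passed in any setting, so that joint variation of these genes was not detectable with 10 libraries.

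As a description over the same 10 libraries, the 3 listed genes most alike in this within-group pattern were named for each gene. For Bcl3 they were Junb (r = 0.932), Hmx2 (0.907) and Vgf (0.841), and for Cebpb they were Ywhah (0.858), Serpina3n (0.837) and Hmx2 (0.809). For Muc1 they were Slc5a1 (0.863), Asb4 (0.755) and Gde1 (0.746), and for Fgb Slc5a1 (0.784), Muc1 (0.65) and Hmgb3 (0.626). Hmx2 thus stood beside both Cebpb and Bcl3, and Slc5a1 beside both Muc1 and Fgb. These points share library, depth and base composition. Slc5a1 and Hmx2 are themselves scarce, at a mean of 0.795 and 1.38 CPM.

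The libraries differed in how CPM went with base composition, and the 4 genes span much of the table in that respect. The longest transcript has a GC content of 67.2% for Cebpb, 62.6% for Bcl3, 54.2% for Muc1 and 44.1% for Fgb, against a median of 56.8% (37.8 to 72.8%) over the table. The slope of log2 CPM on transcript GC over the listed genes, per 10 percentage points, served as a GC index of each library. It ran from 0.042 to 0.0895 with IL-22, and was -0.158, -0.145, -0.0320, -0.0765 and 0.0831 in PBS libraries 1 to 5. The groups thus overlapped through PBS library 5 alone, and the index was measured on genes selected on the same comparison, so that library composition and treatment cannot be fully told apart. In PBS library 5, whose index lay within the IL-22 range, Muc1 (1.87 CPM) and Fgb (0.518 CPM) were at their lowest, Cebpb (1.21 CPM) was below every IL-22 library, and Bcl3 (12.2 CPM) was within the IL-22 range.

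**Figure D3:**
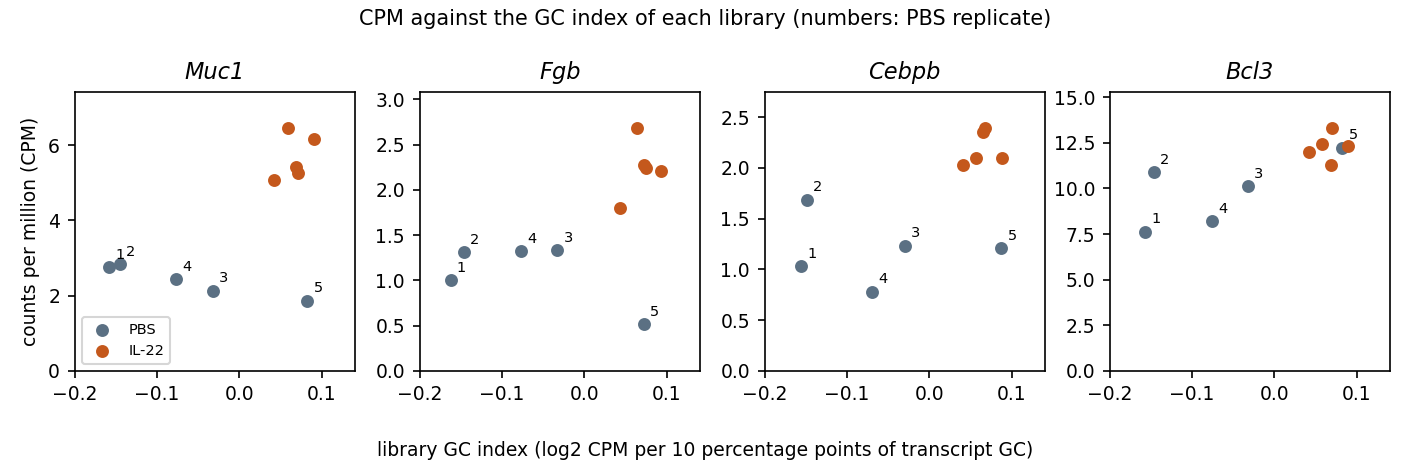
CPM of each gene (vertical axes from 0) against the GC index of the library (log2 CPM per 10 percentage points of transcript GC, horizontal axis, measured without the gene shown), with PBS libraries numbered. At the index of PBS library 5, next to the IL-22 libraries, Muc1, Fgb and Cebpb stay below them and Bcl3 falls among them.

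Within groups, Muc1 had r = -0.792 with the GC index (exact permutation p = 0.0228, adjusted p = 0.183 over 8 relations of genes with library measures) and rho = -0.636 (exact permutation p = 0.129). Without PBS libraries 5 and 1, r was -0.502 (exact permutation p = 0.342). For Fgb r was -0.607 (exact permutation p = 0.254, adjusted p = 0.406) and rho -0.0424 (exact permutation p = 0.932), and r turned to 0.517 without PBS library 5 and to 0.215 without PBS libraries 5 and 1. Bcl3 had r = 0.621 (exact permutation p = 0.22, adjusted p = 0.406), which turned to -0.27 without PBS libraries 5 and 1. Without PBS library 2 it was 0.915 (exact permutation p = 0.0226, adjusted p = 0.181). Cebpb, the most GC-rich of the 4, had r = -0.0771 (exact permutation p = 0.907). Its r was 0.454 without PBS library 2 and -0.482 without PBS libraries 5 and 1. With the log2 library total, Cebpb had r = -0.651 (exact permutation p = 0.108, adjusted p = 0.406) and Bcl3 -0.604, against -0.24 for Fgb and -0.0999 for Muc1. For Cebpb with the total rho was -0.745 (exact permutation p = 0.0281, adjusted p = 0.224). With all 10 libraries none of the 8 relations passed after adjustment, and by Pearson's r 1 (Muc1 with the GC index) was below 0.05 before it. Without PBS library 4 the relation of Cebpb with the total was r = -0.955 (exact permutation p = 0.00278, adjusted p = 0.0222), and it passed there.

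With the GC index as a covariate the fitted log2 difference was larger for Muc1 at 1.54 and Fgb at 1.41, near the same for Cebpb at 0.94, and smaller for Bcl3 at 0.091 (SE 0.130). For Bcl3 the difference was then below its own SE. Muc1 and Fgb were called higher with this covariate, as were 13.9% of the listed genes (32 of 230), and Cebpb and Bcl3 were not. When libraries were scaled on the listed genes by TMM in place of the library total, the median log2 difference of the table went from 0.21 to 0.0025, and the 4 genes kept their positive sign in all settings that were run. In that scaling 18 listed genes (7.83% of the table) were called higher and 33 lower, in place of 187 and 31. Of the 4 genes Muc1 alone was then called, at 1.03 (SE 0.159), with Fgb at 0.82, Cebpb at 0.70 and Bcl3 at 0.13 (SE 0.104). DESeq2 size factors over the listed genes gave 0.83 for Fgb, 0.70 for Cebpb and 0.14 for Bcl3. For Bcl3 DESeq2 with library totals gave 0.32. With those size factors 3 of the 4 genes (all but Bcl3) were called higher, as were 13% of the listed genes (30 of 230).

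**Figure D4:**
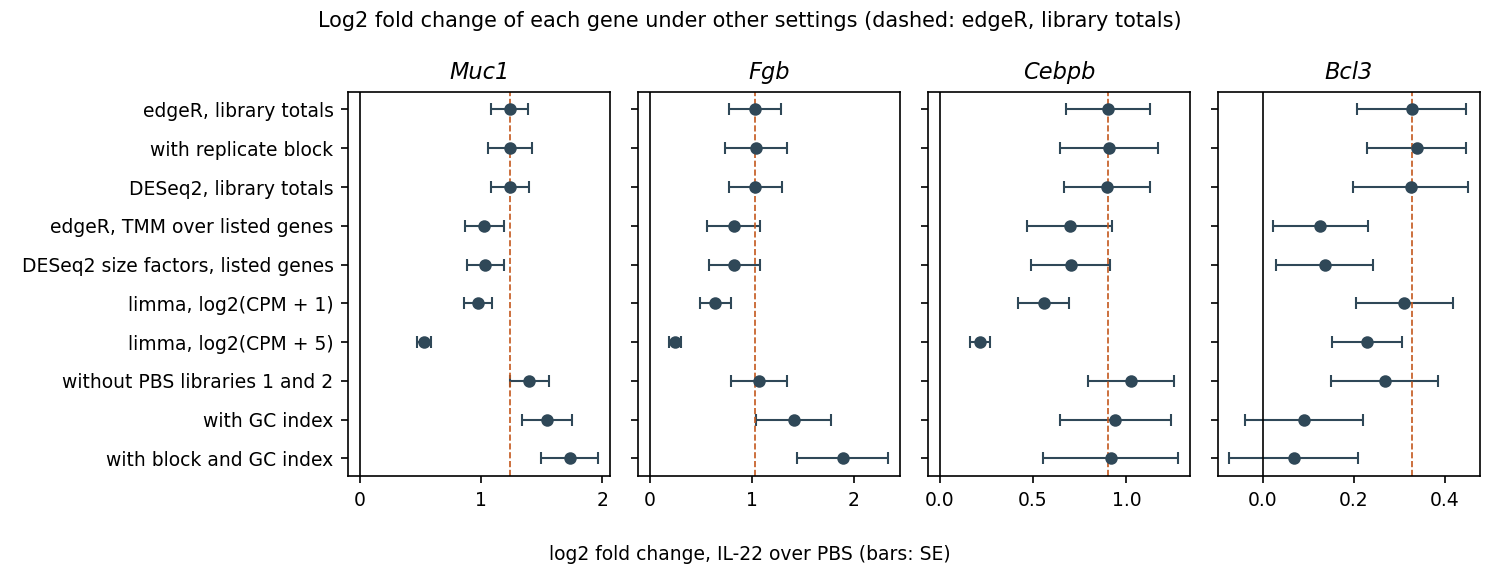
Fitted log2 difference between IL-22 and PBS (horizontal axes, a separate scale for each gene, bars SE) for each gene under 10 settings of model, scaling, covariates and libraries, with the dashed line at the value in the text. All points lie above 0, and for Bcl3 the values with the GC index, 0.091 and 0.068, have bars that reach below 0.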

How the data were processed

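Messenger RNA of 10 MIN6N8 libraries was sequenced with a kit that marks strand, and groups and replicate numbers were taken from the labels. The label gives the IL-22 dose used here, while the methods text of the study names another dose and its legend another number of samples. The authors deposited raw counts, whole reads per gene with no normalization, for 230 genes. They also deposited CPM, which equalled the count over the library total in 2300 of 2300 values (tolerance 0.00051). The authors' log2 fold change and mean log2 expression, a reference column of 0, and the authors' p-value and FDR are in the deposited table as well. Of these the FDR alone was read, to count genes below 0.05 (230 of 230). The submitters' processing notes name build mm10, and the aligner and counter are not given in the sources used here.

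The members and all gene lists, tests and motifs were chosen with earlier results of these data known. The rule for named genes took the 4 members, the 3 listed genes most alike to each and the listed genes of each list. Counts were fitted over all 230 genes (at least 1 CPM in 5 libraries) by edgeR 4.0.16 quasi-likelihood in R 4.3.3, with library totals, Benjamini-Hochberg adjustment and a threshold of 0.01. Dispersions came from listed genes only (common dispersion 0.00413, prior df 7.73). The SE was the estimate over the square root of F. Within-group correlations used log2 CPM with 0.5 reads added and exact permutation in scipy 1.17.1. Gene models were matched for 230 of 230 symbols, 10 through a synonym. The fit was tested on simulated data. No 2 libraries of a group agreed within sampling noise (lowest chi-square per gene 3.25 over 20 pairs). The alternatives were limma 3.58.1, DESeq2 1.42.0, other scalings, filters and pseudocounts, a replicate block, the GC index as a covariate and each library left out.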

Additional observations from a re-analysis of the deposited data

How the results depend on the processing

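The log2 difference of Muc1, Fgb, Cebpb and Bcl3 stayed positive in every setting run (22, 21, 21 and 22 of them). Requiring 1 CPM in every library removed Fgb and Cebpb, so that this filter gave no value for them, and 1 of the 4 genes (Muc1) was then called higher, as were 179 of 222 listed genes. Leaving out single libraries, the difference ran from 1.16 to 1.30 for Muc1, 0.858 to 1.12 for Fgb, 0.785 to 1.04 for Cebpb and 0.244 to 0.423 for Bcl3. Bcl3 was called in 3 of 22 settings: limma on log2(CPM + 5), the replicate block and the fit without PBS library 5. In these settings 83%, 83.9% and 85.2% of the table were called higher. Limma on log2(CPM + 1) gave 0.97 for Muc1, 0.64 for Fgb and 0.56 for Cebpb. On log2(CPM + 5) it gave 0.53 for Muc1, 0.25 for Fgb and 0.22 for Cebpb, since a pseudocount understates the change of low genes. TMM over the listed genes gave 1.03 for Muc1, with 1 of the 4 genes called higher (Muc1), beside 7.83% of the table. DESeq2 size factors over the listed genes called 3 of the 4 (all but Bcl3), beside 13% of the table. The GC index as a covariate gave 1.54 for Muc1 and 0.091 for Bcl3.

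The labels do not tie same-numbered libraries. The deviations of same-numbered libraries had r from -0.21 to 0.299, with a mean of 0.123 against -0.0319 for other pairings. Of 10 libraries 5 correlated best with their own number, so whether the numbers pair the samples was not settled. The replicate block gave 1.24, 1.04, 0.91 and 0.34 for Muc1, Fgb, Cebpb and Bcl3, called 4 of 4 in place of 3, and 193 listed genes higher in place of 187. The block together with the GC index gave 1.73 for Muc1, 1.89 for Fgb and 0.068 for Bcl3.

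Over the table, 187 genes were called higher and 31 lower. The counts were 18 and 33 with TMM and 30 and 33 with DESeq2 size factors, which centre the table near 0 by construction. They were 32 and 0 with the GC index, where 91 and 17 had an unadjusted p below 0.05 in edgeR, and 30 and 2 with block and index. Without PBS libraries 1 and 2, an alternative chosen after seeing the data, they were 72 and 4, with fewer libraries in the fit. With 1 library left out, 15 (without IL-22 library 4) to 32 genes were lower, and the fewest higher were 127 without PBS library 1. Of the 8 relations with library measures 0 to 1 passed. Dispersions and the GC index rest on listed genes only, and 15 to 40 reads in PBS limit Fgb and Cebpb.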
